A study of Homo sapiens with 2 samples.

Results

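The miR-130 and miR-301 family is a set of microRNAs (miRNAs, short RNAs that repress messenger RNAs), read here as hsa-miR-130a, hsa-miR-130b, hsa-miR-301a and hsa-miR-301b (written below without the prefix for human). Its members were the probe names that matched these 4 miRNAs exactly after a probe prefix and the trailing probe number were removed, with opposite-arm (star) probes left out. All 4 were found among 718 probe names, of which 670 were human miRNA names. The family was measured in HepG2, an established human hepatocellular carcinoma line, on 2 small-RNA microarrays. The labels give 1 array of cells marked as control and 1 array of cells marked as treated with TCDD (tetrachlorodibenzo-p-dioxin, a ligand of the aryl hydrocarbon receptor) at 10 nM for 48 h. Both were grown in the same serum-containing medium, and the labels name neither a vehicle for the control nor separate cultures. Every direction rests on those labels.

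A miRNA finds its messenger RNAs mainly through its seed, bases 2 to 8 from the 5′ end, so miRNAs with 1 seed can share targets. The family has been studied in blood vessels, fat cells and tumours. miR-130a has been described as promoting angiogenesis through homeobox genes, miR-130b as repressing the fat-cell regulator PPARG and as raised in tumour-initiating liver cancer cells, and miR-301a as lifting NF-κB activity by repressing NKRF. miR-454 carries the same seed from a hairpin near that of miR-301a.

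The sequences below, of 3 members and of miR-454-3p, show what these miRNAs share and where they part. They are RefSeq mature sequences (GRCh38.p14), with the seed in capitals.
miR-130b: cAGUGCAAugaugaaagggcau
miR-301a: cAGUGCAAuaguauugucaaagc
miR-301b: cAGUGCAAugauauugucaaagc
miR-454-3p: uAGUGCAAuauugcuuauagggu
These lie at chr22:21653354-21653375 on the plus strand, chr17:59151149-59151171 on the minus strand, chr22:21653025-21653047 on the plus strand and chr17:59137787-59137809 on the minus strand. The 4 printed sequences share 1 seed. The sequence of miR-130a was not used here, so it enters none of the sequence counts and comparisons. Besides the printed miRNAs, miR-3666 and miR-4295 carry the seed in the RefSeq table used, and neither had a probe name on the array. Among the printed sequences, miR-301a and miR-301b were the closest pair, with 21 of 23 bases the same. They differ by A10G and G11A (the base of miR-301a, its position counted from 1 at the 5′ end, then the base of miR-301b). miR-130b and miR-301b share their first 12 bases and 13 of 22 in all, and miR-130b and miR-301a share their first 9 bases and 11 of 22 in all. Signals of miR-301a and miR-301b may therefore not be independent, because a probe for one may bind the other. How much this adds to either signal was not tested.

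The genes of the family lie at 3 places. MIR130A is on chromosome 11 within the bounds of the long non-coding RNA gene MIR130AHG. MIR301A is on chromosome 17 within the bounds of SKA2, a gene for a protein of the spindle and kinetochore, and MIR454 lies 13.4 kb away within the same bounds. MIR301B and MIR130B are neighbours on chromosome 22, with 323 bases between their starts. The hairpin of miR-130b shows how the arms are placed, with the guide arm, bases 51 to 72 of 82, in capitals (chr22:21653304-21653385, plus strand).
MIR130B hairpin: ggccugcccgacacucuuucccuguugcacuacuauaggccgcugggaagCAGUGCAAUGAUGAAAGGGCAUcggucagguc

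Values are log2 fluorescence of 1 channel. The smallest value, 5.64, was shared by 343 names on the control array and 257 on the TCDD-labelled array. A floor was set at a fluorescence of 100 (6.64 on the log2 scale), 2 times the smallest. Names above the floor on either array, 242 in all, were taken as detected. Values under the floor were set to it. Names under it on 1 array therefore enter ranks and shares at a lower bound of their difference. Each group had 1 array and so no replicates, and no difference below was tested or has an error. The number of arrays limits the precision. Log2 differences among the 222 names above the floor on both arrays had a robust SD of 0.28. This describes how far single probes lay from each other over all levels and is not a replicate error. Among probes within 0.5 log2 of a member's level, it ran from 0.18 for miR-301b to 0.46 for miR-130b. Of the hepatocyte list miR-192 (13.88 log2 fluorescence in control and 13.96 with the TCDD label) and miR-194 (12.34 and 13.06) were bright and miR-122a (7.60 and 7.59) was dim, and of 6 blood and 4 muscle miRNAs on the array none was detected. Of 4 fibroblast and endothelial miRNAs 2 were detected, miR-143 (10.17 and 10.36) and miR-145 (12.39 and 12.42), and of 2 neural ones none was.

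All 4 family members lay above the floor on both arrays, and all 4 had higher values on the TCDD-labelled array, by 0.10 to 0.71 on the log2 scale, although miR-130b was at -0.02 with a smooth scaling curve found in the deposited values inverted. None of the 4 was 2-fold apart, where 0.413% of the 242 detected names were at least 2-fold higher and 2.48% at least 2-fold lower. Among the 4, 1 member, miR-301b, was at least 1.5-fold higher and 0 were 1.5-fold lower, against 3.31% higher and 4.13% lower among detected names. Differences above 0 were found for 49.6% of detected names. The median difference of the family was 0.26, against -0.003 over all detected names and 0.25 for the family without miR-301b.

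**Figure D1:**
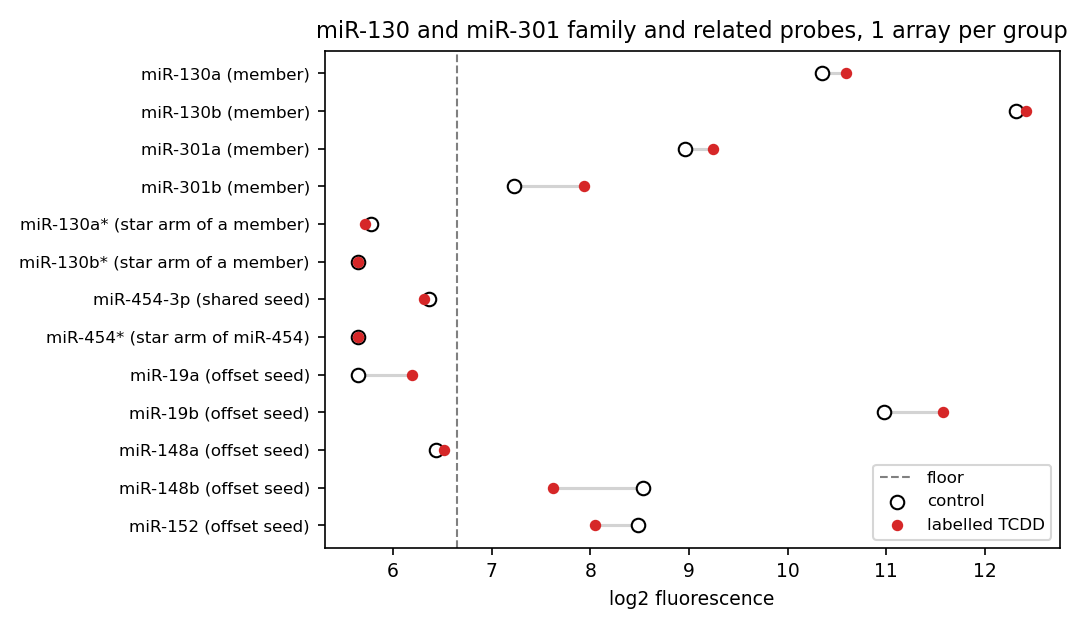
Log2 fluorescence (horizontal axis) of the 4 family members and 9 related probes on the control array (open circles) and the TCDD-labelled array (red), 1 array each. The dashed line is the floor at 6.64. All 4 members lie to the right of it with the red point further right as deposited (miR-130b turns to -0.02 with the scaling curve inverted), while the star arms, miR-454-3p, miR-19a and miR-148a lie to its left on both arrays.

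miR-130a, the member encoded on chromosome 11, had a log2 fluorescence of 10.35 in control and 10.59 with the TCDD label, or 1302 and 1546 fluorescence units. The difference of 0.25 is a 1.19-fold higher signal. It was the 49th highest of 242 differences. Of 16 other probes within 0.5 log2 of its level, 2 had a higher difference, and the 16 ran from -0.26 to 0.28. This small difference was therefore near the upper end of probes of like brightness and under the robust SD over all levels.

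miR-130b had a log2 fluorescence of 12.32 on the control array and 12.42 on the TCDD-labelled one (5099 and 5479 fluorescence units). The difference of 0.10, or 1.07-fold, was the smallest of the 4 as deposited. With quantile normalization miR-130b was at 0.29, above the 0.23 of miR-130a. Of 17 other probes of like brightness, 8 had a higher difference and their median was 0.10, so miR-130b stood in the middle of its surroundings. Its sign depended on the scaling, and its -0.02 with the curve inverted stood against a median of -0.07 over all detected names in that setting.

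miR-301a, the member within SKA2, had 8.96 in control and 9.24 with the TCDD label (498 and 605 fluorescence units). The difference was 0.28, or 1.21-fold. Of 33 other probes within 0.5 log2 of its level, 2 had a higher difference, while 9 lay at least as far from 0 in either direction. The median of those 33 was -0.13, so most neighbours in brightness leaned the other way.

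miR-301b, the neighbour of miR-130b, had the largest difference of the family. It was at 7.22 in control and 7.93 with the TCDD label, or 149 and 244 fluorescence units. The difference of 0.71 is a 1.64-fold higher signal and the 5th highest of 242. That rank counts names under the floor on 1 array at a lower bound. miR-369-3p, for example, was at 5.64 in control and 7.10 with the TCDD label but entered at 0.46. Of 58 other probes as bright as miR-301b to within 0.5 log2, 1 had a higher difference, and their robust SD was 0.18. The control value of miR-301b lay only 0.58 above the floor on the log2 scale, so its difference rests on a dim control signal. With a floor at each array's 75th percentile the control value fell under it, and the probe was at least 0.44 higher on the log2 scale. With the floor added before log2 the difference was 0.47. Both are below 1.5-fold, which is 0.58 on that scale.

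**Figure D2:**
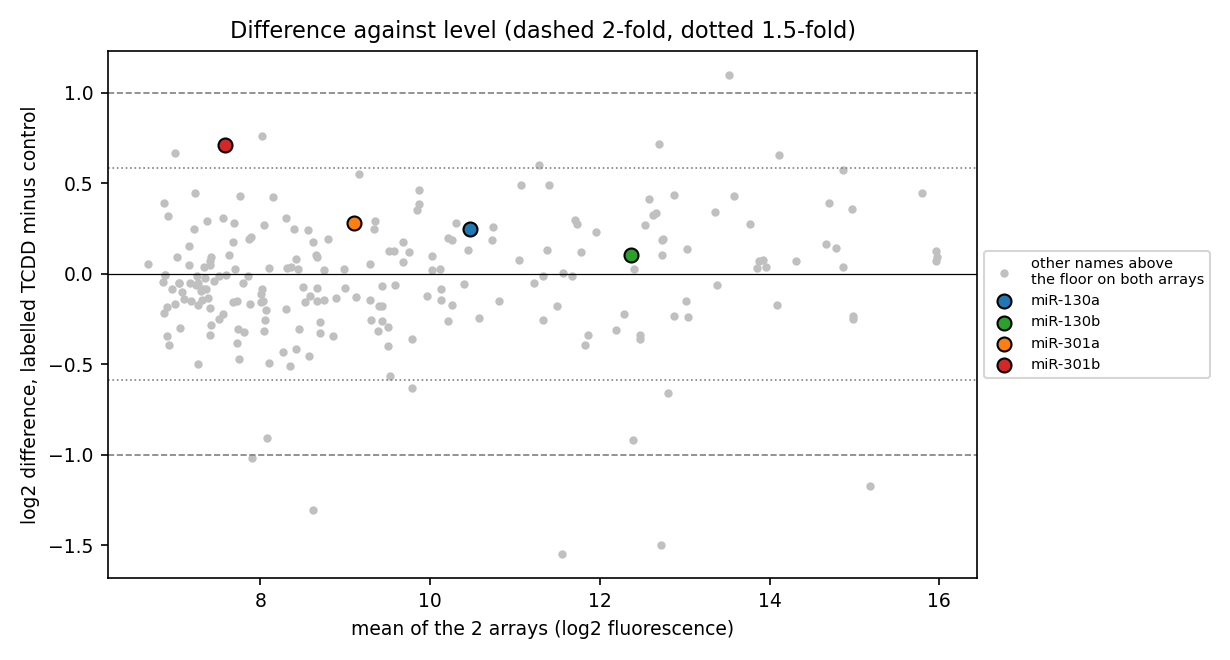
Log2 difference (TCDD-labelled array minus control, vertical axis) against the mean log2 fluorescence of the 2 arrays for the 222 names above the floor on both. Dashed lines mark 2-fold and dotted lines 1.5-fold. The 4 coloured members lie above 0 as deposited, miR-130b turning to -0.02 with the scaling curve inverted, and miR-301b at 0.71 is the only one past the 1.5-fold line.

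The probes kept 1 order on both arrays, miR-130b, then miR-130a, miR-301a and miR-301b. Brightness depends on the probe, so this order does not rank the miRNAs by abundance. miR-301b differed by 0.43 more than miR-301a on the log2 scale and by 0.61 more than miR-130b.

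miR-130b and miR-301b were set against other miRNA genes that lie near each other. Among 130 names that lay above the floor on both arrays and were spelled like a human gene symbol, 40 pairs had starts within 10000 bases. Star names were left out. So were miRNAs whose gene symbols carry a copy number, such as miR-19b (difference 0.60) and miR-92a (-0.31) of the miR-17/92 cluster. Ranks among the pairs therefore hold for these 40 alone and not for all neighbouring miRNA genes. The log2 differences of miR-130b (0.10) and miR-301b (0.71) were 0.61 apart, the third largest distance of the 40. The other 39 pairs had a median distance of 0.20 and ran from 0.01 to 0.94. The pairs with larger distances were miR-191 and miR-425 (0.94) and miR-188 and miR-532-3p (0.73). Pairs overlap in their members, and arms of a single hairpin entered as separate names, so the 40 are not independent. Many of them join miR-188, miR-362, miR-501, miR-502 and miR-532 names on the X chromosome. The distance between miR-301b and miR-130b ran from 0.33 with the stricter floor, a lower bound, to 0.75 with a level trend removed. Ranks of pairs were taken from the differences as reported alone.

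**Figure D3:**
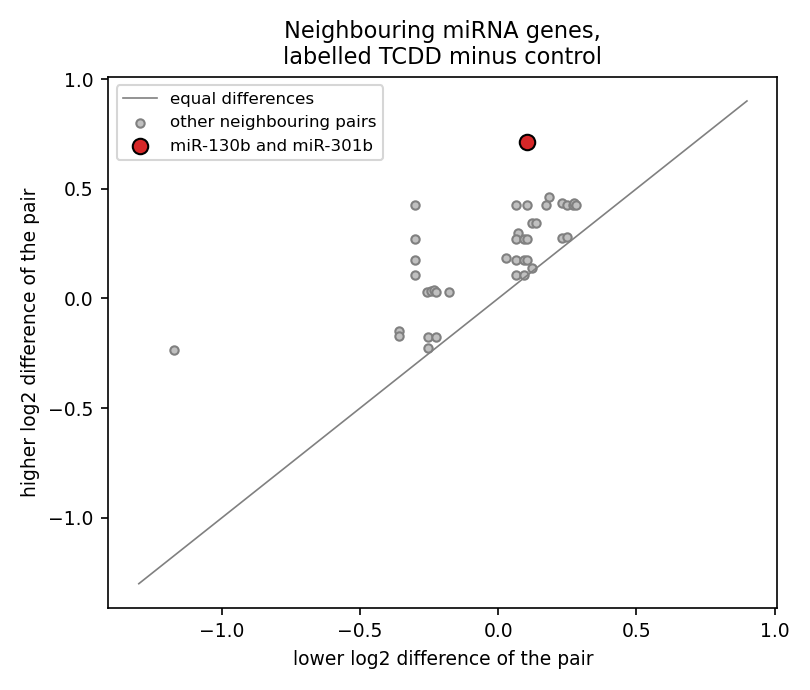
Each point is a pair of miRNA genes with starts within 10000 bases, among names spelled like a gene symbol. Star names and miRNAs whose gene symbols carry a copy number are not shown. The axes give the lower and the higher log2 difference (TCDD-labelled array minus control) of the pair, and the line marks equal differences. The red point, miR-130b at 0.10 and miR-301b at 0.71, lies further from the line than all but 2 of the other 39 pairs.

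The probes for the opposite arms of miR-130a and miR-130b and for miR-454 gave no signal above the floor. The array had no probe name for the opposite arm of miR-301a or miR-301b. miR-130a*, the opposite arm of miR-130a, was at 5.78 in control and 5.72 with the TCDD label. miR-130b*, the opposite arm in the hairpin printed above, had the smallest value on both arrays. miR-454-3p, which has the family seed and whose gene is near that of miR-301a, was at 6.37 and 6.31, and miR-454* had the smallest value on both. No fold is given for these 4 probes. The signal in HepG2 was thus read from the guide-arm probes of the 4 members, and a lower level of the others was not measurable on these arrays.

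Relatives whose seed overlaps that of the family differed in both directions. They share a run of 6 of the 7 seed bases with the family, shifted by a base, as miR-19b and miR-148b show (RefSeq, GRCh38.p14, bases 2 to 8 in capitals).
miR-19b: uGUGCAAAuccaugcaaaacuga
miR-148b: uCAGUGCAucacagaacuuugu
The copy of miR-19b printed lies at chr13:91351245-91351267 on the plus strand and miR-148b at chr12:54337278-54337299 on the plus strand. miR-19b, a growth-promoting member of the miR-17/92 cluster, was at 10.98 in control and 11.58 with the TCDD label, 1.52-fold higher. miR-148b was at 8.53 and 7.62, a difference of -0.91. miR-152, which has the seed of miR-148b, was at 8.48 and 8.05, a difference of -0.43. miR-19a and miR-148a were under the floor on both arrays. Of the 5 relatives 3 were therefore measured, with 1 higher and 2 lower, while the 4 family members were all higher as deposited, and 3 of the 4 with the scaling curve inverted. That contrast was not tested.

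The human miRNA probes nearest to each member were found by the distance between their 2 log2 values, among 202 others above the floor on both arrays. They say which probes had like signals on these arrays and nothing of shared control. The nearest to miR-130a was miR-324-3p (10.38 in control and 10.51 with the TCDD label, distance 0.09), followed by miR-222* and miR-877 (0.24 each). The nearest to miR-130b was miR-145 (12.39 and 12.42, distance 0.08), followed by let-7e and miR-423-3p (0.26 and 0.27). miR-301a lay nearest to miR-138 (8.89 and 9.44, distance 0.21), and then to miR-769-5p and miR-652 (0.25 and 0.29). miR-301b had the most distant neighbours, miR-338-5p (7.41 and 7.71, distance 0.29), miR-188 (0.32) and miR-20b (0.34). None of the 3 probes nearest to miR-301b had a difference as large, the highest being 0.43 for miR-188.

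**Figure D4:**
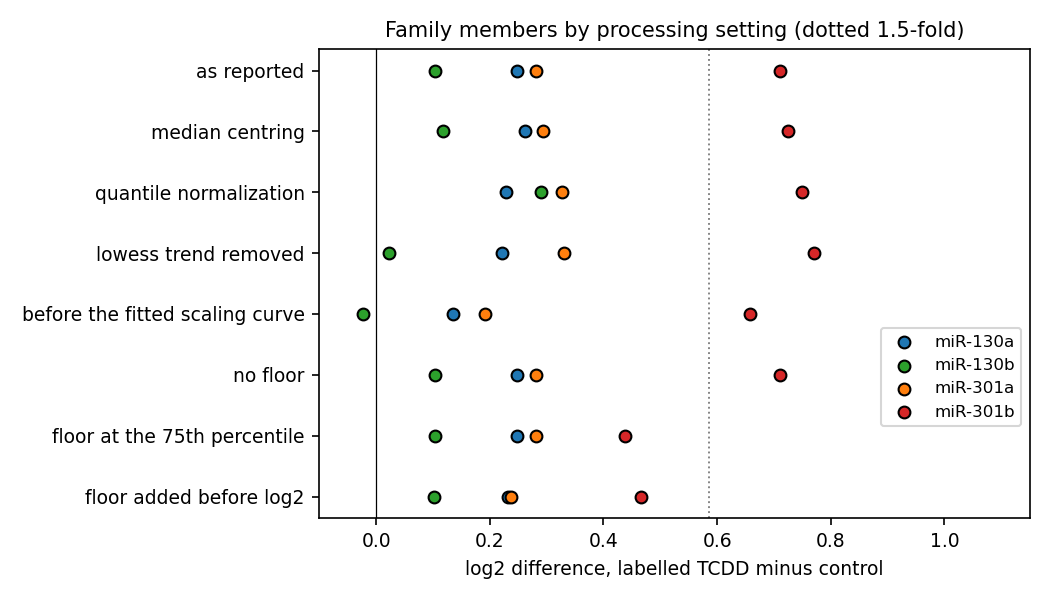
Log2 difference (TCDD-labelled array minus control, horizontal axis) of the 4 members as reported and under 7 other processing settings (rows). The dotted line is 1.5-fold. miR-301b stays furthest to the right in every row and falls below the dotted line in the rows with the stricter floor, where the point is a lower bound, and with the floor added, while miR-130b crosses 0 in 1 row.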

How the data were processed

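Per the labels' protocols, total RNA received a dye through a ligated RNA linker, and per the series' design text the second channel held unrelated samples. The authors deposited log2 fluorescence, 1 value per probe and array. How the arrays were scanned, background-corrected and scaled was in none of the labels or headers used here.

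The 719 probes were reduced to 718 names (duplicates averaged). Values under the floor were set to it before the log2 difference was taken. No test was possible with 1 array per group. The members and lists were chosen with earlier results of these data known. Named probes were the members, their star arms where on the array, probes sharing the seed, 5 offset-seed relatives and the 3 nearest probes of each member. Of 10 names looked up in RefSeq, 9 matched, all but miR-130a, through arm names paired by hand. The 4 probes at or within about 1 unit of an array's highest value were kept out of the neighbour pairs. The inverted curve was a polynomial of degree 2 of log2 signal on a grid of single units. It reproduced 91.3% of distinct control values and 100% of those of the other array within 0.05 units. Other alternatives were median centring, quantile normalization, a floor at the 75th percentile, the floor added, no floor and lowess (fraction 0.5). The procedures were tested on simulated data. Python 3.11.15, numpy 2.4.6, pandas 2.3.3 and statsmodels 0.14.6 were used.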

Additional observations from a re-analysis of the deposited data

How the results depend on the processing

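No member moved by as much as the robust SD of 0.28 under any of 7 alternatives, and 27 of 28 alternative values lay above 0. miR-301b came closest, moving from 0.71 to a lower bound of 0.44 with the stricter floor, only just less than that SD. This bar is lax, because it exceeds the whole differences of miR-130a (0.25) and miR-130b (0.10), so a fall to 0 would pass. Some of the 28 values could not differ from those reported. All 4 members lay above the floor, so dropping it changed none. The stricter floor likewise left miR-130a, miR-130b and miR-301a as they were. Median centring shifted all members alike. The ranges were 0.14 to 0.26 for miR-130a, -0.02 to 0.29 for miR-130b, 0.19 to 0.33 for miR-301a and 0.44 to 0.77 for miR-301b, and the family median ran from 0.16 to 0.31. With the fitted scaling curve inverted, the share of detected names above 0 was 38.2% instead of 49.6%, and 3 members lay above 0. miR-301b stayed at least 1.5-fold higher in 5 of the 7. The count of members apart was 0 at 2-fold and 1 at 1.5-fold. Over all names the count at least 2-fold higher, 1 as reported, was 0 with the lowess trend removed, 0 with the curve inverted, 8 at 1.5-fold, 0 at 3-fold and 8 with no floor. At least 2-fold lower were 6 as reported, against 10 at 1.5-fold and 1 at 3-fold. Fewer or more names pass other thresholds by construction. The names added with no floor were miR-181c, miR-194*, miR-19b-1*, miR-30c-1*, miR-369-3p, miR-370 and miR-605. All were under the floor in control, so the floor had limited their differences. The cause of the other changes was not tested. All 105 alternative values of the other named probes stayed within the robust SD, which is the same lax bar. No paired analysis was possible because there is 1 array in each group, which also means that no replicate could be left out. The floor limits what the dim probes show.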
